A study of Mus musculus with 4 samples.

Results

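The 13 protein-coding genes of the mouse mitochondrial genome and Gm10925, a pseudogene on chromosome 1, were followed in neurons derived from mouse embryonic stem (ES) cells. The members were every symbol beginning with mt- that was listed in all 4 libraries, plus Gm10925, which makes 14 of 34968 shared symbols. Gm10925 was chosen by its values in these libraries, where N/D/S exceeded N/D, so its difference between the lines is given as a description with no test. The mt- genes were taken by name, though with earlier results of these data known. Mitochondrial ribosomal and transfer RNAs were not analysed here.

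Both lines descended from the same Dlx6-Cre; Ai9 ES cells of the C57/BL6 strain label, in which Cre recombinase, driven from a regulatory region of the forebrain gene Dlx6, switches on the red reporter tdTomato. Each carried a construct that expresses the transcription factor Nkx2-1 and a tetracycline-type transactivator under Nestin control, and the transactivator in turn drives a second construct. In N/D that construct encoded Dlx2, and in N/D/S it encoded Dlx2 and a V5-tagged St18, a zinc finger factor of the Myt1 family. Each line was selected as a clone, so the effect of St18 and any other difference between the clones cannot be told apart. Both were grown for 12 days as embryoid bodies, first with XAV-939, a Wnt pathway inhibitor, and later with SAG, a Sonic hedgehog agonist. Cells with tdTomato were then sorted, and polyadenylated RNA was sequenced from 2 libraries per line. No source used here says that the replicates were separate cultures, so the p-values measure the spread between these libraries, which may be technical.

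Values are in TPM, the usual measure of relative transcript abundance, which is a share of the library corrected for transcript length, so levels of different genes can be compared within a library. TPM keeps no read numbers, so sequencing depth is unknown. Symbols above 0 numbered 13426 and 20107 in replicates 1 and 2 of N/D and 20750 and 17118 in those of N/D/S. N/D replicate 1 had the fewest, and the main values are also given without it. Tubb3, a tubulin of neurons, was between 1509 and 2774 TPM in every library. In RNA from bulk samples, fewer cells of a type and less RNA per cell cannot be told apart.

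The mitochondrial genome is a small circular DNA kept in many copies per cell. It encodes core subunits of the respiratory chain complexes I, III and IV and of the ATP synthase, also called complex V, whose other subunits come from nuclear genes. Both strands are transcribed as long precursors that are cut at the transfer RNAs within them, and most of the resulting mRNAs receive short poly(A) tails, which is how they enter a poly(A)-selected library. Neurons depend heavily on oxidative phosphorylation. Pieces of mitochondrial DNA have also been inserted into nuclear chromosomes during evolution, and such copies are annotated as pseudogenes.

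Gm10925 (ENSMUSG00000100862) is annotated as an unprocessed pseudogene at chr1:24613974-24614651 on the minus strand (GRCm38, GENCODE M21). It lies in a block of 7 adjacent pseudogenes that spans 4663 bases, from position 24611535 to 24616197, and each of the 7 resembles a different mitochondrial gene. Gm10925 matches mt-Atp6, which encodes subunit a of the ATP synthase at chrM:7927-8607 on the plus strand. All 678 bases of the Gm10925 transcript were identical to the first 678 of the 681 bases of mt-Atp6. The 3′ ends, from base 622 of each transcript, are printed because they hold the only difference, with the bases that mt-Atp6 has and Gm10925 lacks in capitals.
mt-Atp6: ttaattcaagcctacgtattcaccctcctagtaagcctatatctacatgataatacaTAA
Gm10925: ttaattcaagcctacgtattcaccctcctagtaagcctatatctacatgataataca
In capitals are the last 3 bases of the mt-Atp6 transcript. The authors assigned reads by pseudoalignment, which looks up short stretches of each read in an index of transcripts, by default of 31 bases. Of the 648 such 31-base stretches (31-mers) in Gm10925, 0 were absent from every other gene of GENCODE M21, and of the 651 in mt-Atp6, 3 were. A read from either gene therefore matches both almost everywhere, and the division of TPM between the 2 is uncertain.

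The other 6 copies pair with mt-Nd4 (Gm28439), mt-Nd4l (Gm10222), mt-Nd3 (Gm28438), mt-Co3 (Gm28437), mt-Co2 (Gm28661) and mt-Co1 (Gm29216). In 5 of the 7 pairs, Gm10925 among them, the copy was identical to the mitochondrial gene over all compared bases, and these 5 copies had no 31-mer of their own. Only Gm28438 and Gm29216 carried substitutions, and these are printed because they are what tells those copies from their mitochondrial partners. Gm28438 differed from mt-Nd3 at 1 of 345 bases (T3C, the mitochondrial base first, counted from 1 at the 5′ end of mt-Nd3), shown in capitals within the first 33 bases.
mt-Nd3: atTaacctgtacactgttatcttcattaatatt
Gm28438: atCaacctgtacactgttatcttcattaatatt
Gm29216 covers bases 1054 to 1545 of mt-Co1 and differed from it at 6 of 492 bases, T1056A, C1057T, A1059G, A1060G, C1062A and A1066T, counted from the 5′ end of mt-Co1. All 6 are at the 5′ end of the copy, shown from base 1054 to 1096 of mt-Co1 with the differing bases in capitals.
mt-Co1: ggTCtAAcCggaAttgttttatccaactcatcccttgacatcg
Gm29216: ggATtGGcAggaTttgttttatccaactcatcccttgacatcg
With these substitutions Gm28438 had 3 of 315 and Gm29216 13 of 462 31-mers found in no other gene.

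**Figure D1:**
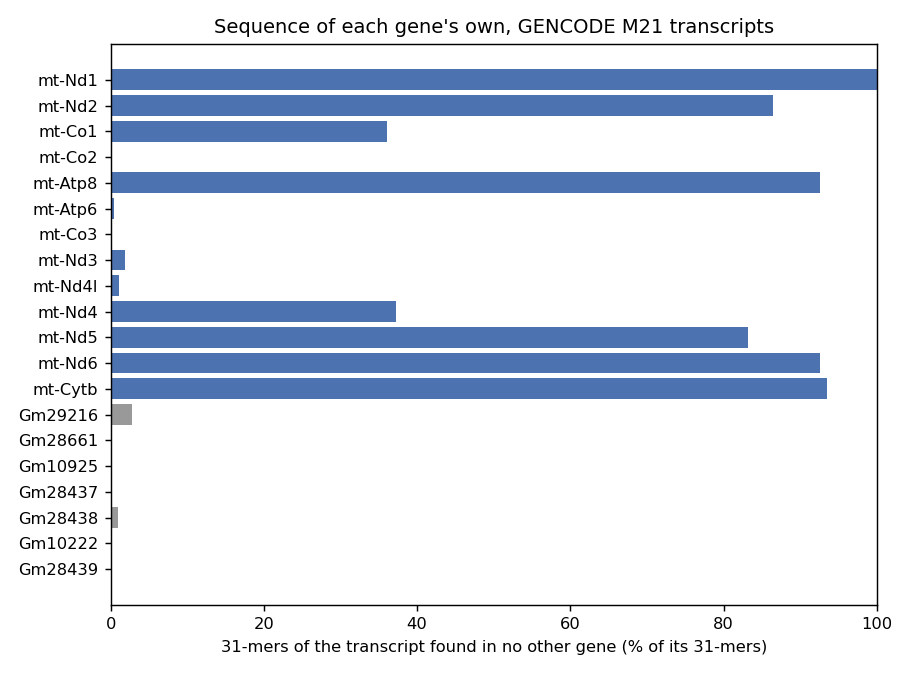
The bars give, for each mitochondrial gene (blue) and each chromosome 1 copy (grey), the percentage of its 31-base stretches that occur in no other gene of GENCODE M21. mt-Nd1 is at 100% while mt-Co2 and 5 of the copies, Gm10925 among them, are at 0%.

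The mitochondrial genes themselves differed widely in how much sequence was theirs alone. Genes with a chromosome 1 copy had few 31-mers of their own where the copy was complete: 0 of 654 in mt-Co2, 1 of 754 in mt-Co3, 3 of 267 in mt-Nd4l and 6 of 318 in mt-Nd3. Where the copy was partial there were more, with 547 of 1515 in mt-Co1 and 502 of 1348 in mt-Nd4. The 6 genes without a chromosome 1 copy were largely distinct, from 1492 of 1794 in mt-Nd5 to 927 of 927 in mt-Nd1. A further 12 listed symbols share 31-mers with these genes, and all of them lay between 0 and 0.905 TPM in every library.

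Gm10925 measured 75.5 and 162.3 TPM in N/D replicates 1 and 2, and 763.3 and 930.6 TPM in N/D/S replicates 1 and 2. Both N/D/S libraries lay above both N/D libraries, at 10.1 times the N/D value in replicate 1 and 5.73 times in replicate 2. On the log2(TPM + 1) scale, which is used for all differences below, these were differences of 3.32 and 2.51, with a mean of 2.92, and of 2.37 without N/D replicate 1. By rank of TPM within a library, Gm10925 stood at 2194 and 1206 in N/D and at 164 and 168 in N/D/S. Its lowest N/D/S value was 4.70 times its highest N/D value, which ranked it 1 among the 7011 genes that reached 1 TPM throughout. This is the pattern it was chosen by. Between replicate numbers its libraries overlapped, with a difference of −0.69 for replicate 1 minus 2 (SE 1.49, limma adjusted p = 0.981).

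Its mitochondrial twin did not show that separation. mt-Atp6 measured 4603 and 9965 TPM in N/D and 5133 and 10406 TPM in N/D/S, so the lines overlapped and both replicate 2 libraries were higher. Gm10925 amounted to 1.64 and 1.63 TPM per 100 TPM of mt-Atp6 in N/D, and to 14.9 and 8.94 in N/D/S. Since both values come from the same library, this ratio does not depend on scaling between libraries. Per 100 TPM of all mt- genes, Gm10925 stood at 0.324 and 0.400 in N/D and at 2.83 and 2.07 in N/D/S.

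Summing both genes removes the uncertain division of reads between them. The sum of mt-Atp6 and Gm10925 was 4678 and 10127 TPM in N/D and 5897 and 11336 TPM in N/D/S. N/D/S exceeded N/D 1.26 times in replicate 1 and 1.12 times in replicate 2, and the lines overlapped. The mean difference of the sum was 0.25 on the log2 scale, against 2.92 for Gm10925 alone and 0.11 for mt-Atp6 alone. Gm10925 held 1.61% and 1.60% of the pair in N/D and 12.9% and 8.21% in N/D/S.

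**Figure D2:**
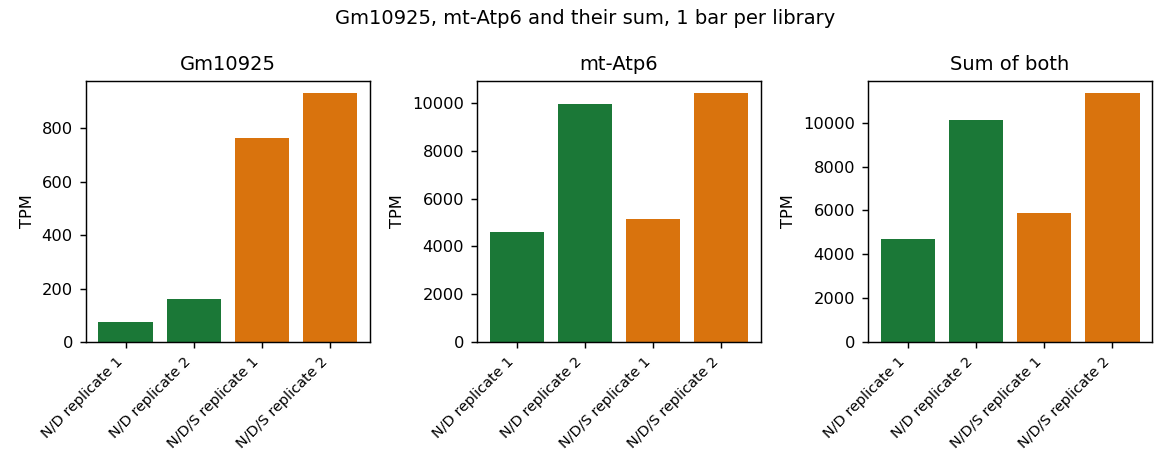
Bars give TPM in each library (green, N/D; orange, N/D/S) for Gm10925, mt-Atp6 and their sum, each panel with its own axis from 0. Gm10925 separates the lines (75.5 and 162.3 against 763.3 and 930.6 TPM), while mt-Atp6 and the sum are higher in replicate 2 of both lines.

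Among the other members of the chromosome 1 block, none had both N/D/S libraries above both N/D libraries. Gm28439 and Gm10222, the copies of mt-Nd4 and mt-Nd4l, were listed at 0 in every library, and Gm28661, the copy of mt-Co2, did not exceed 0.280 TPM. Gm28437, the copy of mt-Co3 that directly neighbours Gm10925, measured 7.28 and 438 TPM in N/D and 63.5 and 886 TPM in N/D/S, which is 8.73 and 2.02 times the N/D value within replicates 1 and 2. Its values followed the replicate number, with replicate 2 higher in both lines and a difference of −4.76 for replicate 1 minus 2 (SE 1.23), which did not pass (limma unadjusted p = 0.0106, adjusted p = 0.976). Gm28438, the copy of mt-Nd3, was at 570 and 774 TPM in N/D and at 644 and 1997 TPM in N/D/S, or 1.13 and 2.58 times N/D. Gm29216, the copy of mt-Co1, varied least of the copies that reached 1 TPM, at 4235 and 4143 TPM in N/D and 4034 and 4944 TPM in N/D/S. The lines overlapped for Gm28437, Gm28438 and Gm29216 (limma adjusted p = 1.0 for each).

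The share that a copy took of its pair also differed between pairs. Gm29216 held 76.8% and 72.2% of the mt-Co1 pair in N/D and 66.8% and 72.3% in N/D/S, and so stood above mt-Co1 itself in every library. Gm28438 held between 63.2% and 79.0% of the mt-Nd3 pair. Gm28437 held 0.126% and 5.38% of the mt-Co3 pair in N/D and 0.775% and 6.48% in N/D/S. Gm10925 was the only one of the 7 copies whose share of its pair was higher in both N/D/S libraries than in both N/D libraries. This rests on the values Gm10925 was chosen by, and Gm28439 and Gm10222, at 0 in every library, could not show it. The other listed genes within 50 kb were the collagen gene Col19a1 and the pseudogene Tubb4b-ps2, which stayed at or below 0.960 and 0.118 TPM.

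The next comparison asks whether adding St18 to Nkx2-1 and Dlx2 went with other levels of the mitochondrial mRNAs. No mt- gene passed the test. In limma across the 12975 genes that reached 1 TPM in 2 or more libraries, 0 of 13 mt- genes passed an adjusted p of 0.05 for N/D/S against N/D, and 0 of 13 had an unadjusted p under 0.05. Among all tested genes 0 passed (0.0%), with 8 at an unadjusted p under 0.05. Without N/D replicate 2, N/D rests on replicate 1 alone, the library with the fewest symbols above 0, so calls from that fit are not given. The differences of the mt- genes ranged from −0.86 to 0.61 with a median of −0.04, beside a median of 0.26 over all tested genes, which became −0.15 over the genes that reached 1 TPM in all 4. Standard errors were between 0.96 and 1.19, so changes of about 2-fold were within the error. The limma model draws each gene's error toward that of all tested genes, so a standard error can exceed the gene's own spread. For mt-Nd4l, replicate 1 minus 2 was −0.25 in N/D and −0.21 in N/D/S, beside an SE of 0.96. The median of the mt- genes was −0.74 without N/D replicate 1, and 0.39 when replicate 2 of that line was left out, where the medians of all genes were −0.29 and 0.88, so the sign of both rested on single libraries.

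**Figure D3:**
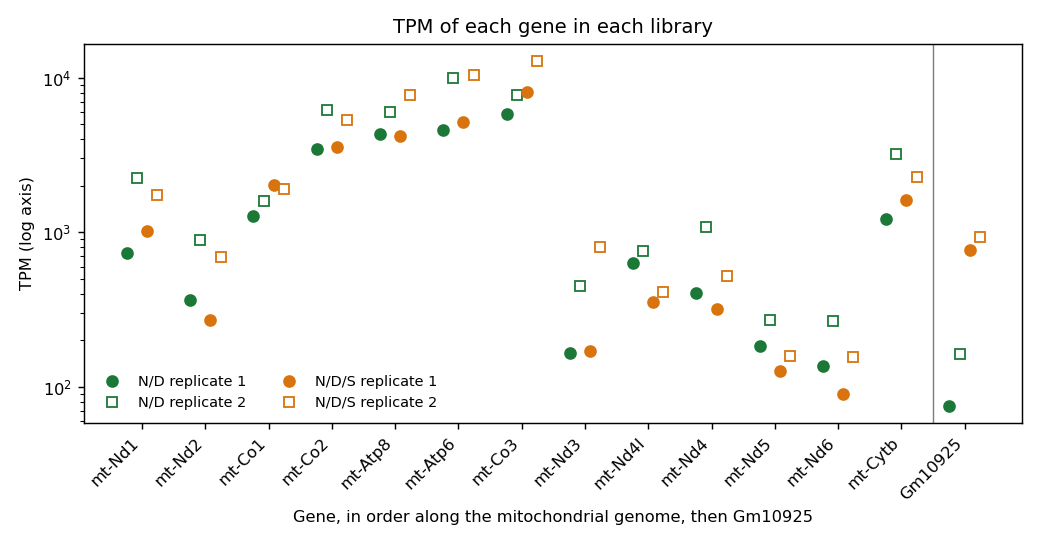
Each point is 1 library (green, N/D; orange, N/D/S; filled circles, replicate 1; open squares, replicate 2), with TPM on a log axis and genes in their order along the mitochondrial genome. For Gm10925 the N/D/S points lie above all N/D points, while for 9 of the 13 mt- genes the lines overlap.

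Complex I, the NADH dehydrogenase that takes in electrons from NADH, has 7 subunits of mitochondrial origin. mt-Nd1 (chrM:2751-3707) measured 731 and 2236 TPM in N/D and 1018 and 1729 TPM in N/D/S. mt-Nd2 (chrM:3914-4951) measured 364 and 890 TPM in N/D and 270 and 688 TPM in N/D/S. mt-Nd3 (chrM:9459-9806) measured 166 and 451 TPM in N/D and 171 and 806 TPM in N/D/S. In these 3 genes replicate 2 was higher in both lines and the lines overlapped. mt-Nd4l (chrM:9877-10173) measured 632 and 751 TPM in N/D and 353 and 409 TPM in N/D/S, and with mt-Nd5 was 1 of 2 mt- genes in which both N/D/S libraries were lower. Its difference of −0.86 (SE 0.96) was the lowest of the 13 and did not pass (limma unadjusted p = 0.401, adjusted p = 1.0).

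mt-Nd4 (chrM:10167-11544), which shares 7 bases with the end of mt-Nd4l, measured 405 and 1079 TPM in N/D and 317 and 520 TPM in N/D/S. mt-Nd5 (chrM:11742-13565) measured 183 and 269 TPM in N/D and 126 and 159 TPM in N/D/S, with a difference of −0.65 (SE 0.97, limma adjusted p = 1.0). mt-Nd6 (chrM:13552-14070) measured 136 and 266 TPM in N/D and 89.7 and 155 TPM in N/D/S. mt-Nd6 is the single protein-coding gene read from the opposite strand and was the lowest mt- gene in each library. For mt-Nd2, mt-Nd4, mt-Nd4l, mt-Nd5 and mt-Nd6 the N/D/S value was below the N/D value in both replicate numbers, and for mt-Nd3, mt-Co1, mt-Co3 and mt-Atp6 it was above in both. These 5 and 4 of 13 stand beside 17.9% and 15.9% of all tested genes. Summed complex I subunits reached 2618 and 5942 TPM in N/D and 2344 and 4465 TPM in N/D/S, and the lines overlapped.

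Complex III, which passes electrons to cytochrome c, has mt-Cytb (chrM:14145-15288), cytochrome b, as its mitochondrial subunit. It measured 1215 and 3213 TPM in N/D and 1622 and 2292 TPM in N/D/S. N/D/S was higher in replicate 1 and lower in replicate 2, and the difference was −0.04 (SE 1.03, limma adjusted p = 1.0).

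Complex IV, cytochrome c oxidase, which reduces oxygen, holds both mt- genes for which the N/D/S libraries lay above the N/D libraries. mt-Co1 (chrM:5328-6872), the catalytic subunit, measured 1281 and 1598 TPM in N/D and 2008 and 1897 TPM in N/D/S. mt-Co3 (chrM:8607-9390) measured 5793 and 7713 TPM in N/D and 8135 and 12781 TPM in N/D/S. These differences of 0.45 (SE 0.96) and 0.61 (SE 0.98) did not pass (limma adjusted p = 1.0 for each). With their chromosome 1 copies added, both stayed higher in both N/D/S libraries, at 5516 and 5741 against 6041 and 6841 TPM for the mt-Co1 pair and 5801 and 8151 against 8198 and 13667 TPM for the mt-Co3 pair. Gm29216 is shorter than mt-Co1, at 492 against 1545 bases. A read thus adds more TPM to the copy than to the gene, and the mt-Co1 sum still depends on the division of reads. mt-Co2 (chrM:7013-7696), which carries the entry site for electrons from cytochrome c, measured 3445 and 6172 TPM in N/D and 3535 and 5343 TPM in N/D/S, and the lines overlapped.

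Of the 13 mt- genes, then, 2 were higher in both N/D/S libraries, 2 were lower in both and 9 overlapped. Over all tested genes 8.69% were higher and 8.23% lower in both N/D/S libraries, so with 13 genes the counts of 2 and 2 lie near this background.

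Complex V, the ATP synthase, has mt-Atp6, described above, and mt-Atp8 (chrM:7766-7969) as mitochondrial subunits. mt-Atp8 measured 4322 and 5975 TPM in N/D and 4173 and 7717 TPM in N/D/S, with a difference of 0.16 (SE 0.99, limma adjusted p = 1.0). The reading frames of mt-Atp8 and mt-Atp6 overlap by 43 bases and are carried on the same mRNA. Even so their TPM differed, with mt-Atp8 at 0.939 and 0.600 times mt-Atp6 in N/D and 0.813 and 0.742 times in N/D/S. mt-Nd4l and mt-Nd4 also share an mRNA, and mt-Nd4l stood at 1.56 and 0.696 times mt-Nd4 in N/D and at 1.11 and 0.787 times in N/D/S. Both ratios were lower in replicate 2 than in replicate 1 in either line, and neither separated the lines.

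**Figure D4:**
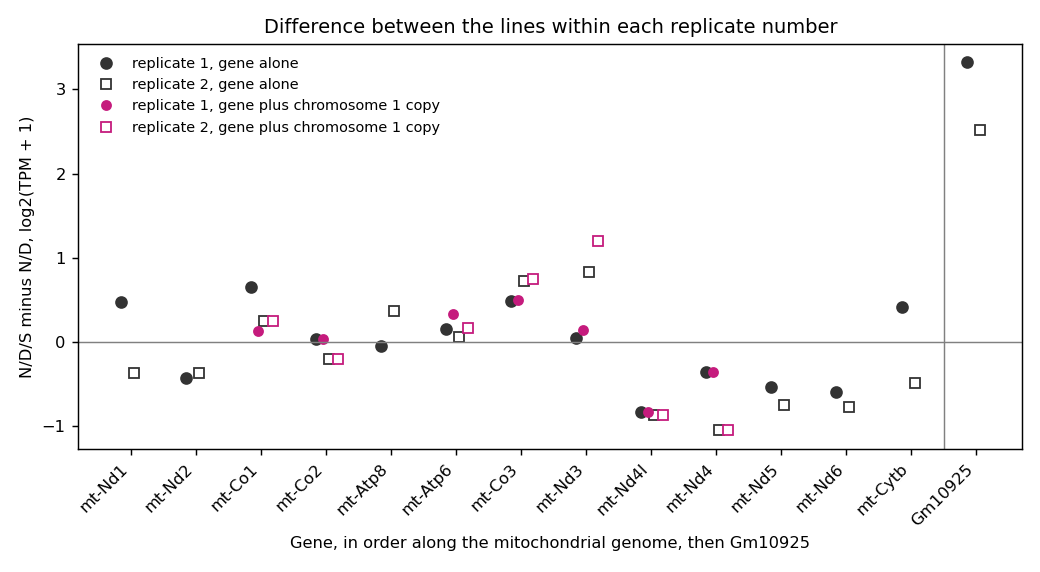
Points give the N/D/S minus N/D difference in log2(TPM + 1) within replicate 1 (circles) and replicate 2 (squares), for each gene alone (black) and summed with its chromosome 1 copy (magenta, for the 7 genes that have one). Gm10925 alone is at 3.32 and 2.51, and its sum with mt-Atp6 is at 0.33 and 0.16.

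Shares of the summed mt- TPM compare the mitochondrial mRNAs with each other within a library. Complex I held 11.2% and 14.6% of it in N/D and 8.70% and 9.94% in N/D/S, so both N/D/S libraries were lower. An exact two-sided permutation test of 2 against 2 libraries gave p = 0.333, the smallest this design allows. With the chromosome 1 copies added to their partners the complex I share was 11.3% and 14.6% in N/D and 9.21% and 12.0% in N/D/S, and the lines overlapped. Such pooled shares still depend on how reads were divided between mt-Co1 and the shorter Gm29216. Complex III held 5.22% and 7.92% in N/D and 6.02% and 5.11% in N/D/S. Complex IV held 45.2% and 38.2% in N/D and 50.8% and 44.6% in N/D/S, and complex V 38.3% and 39.3% in N/D and 34.5% and 40.4% in N/D/S. The lines overlapped for these 3 complexes.

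By gene, 6 of 13 shares were lower in both N/D/S libraries (mt-Nd2, mt-Co2, mt-Nd4l, mt-Nd4, mt-Nd5 and mt-Nd6), 1 was higher (mt-Co3) and 6 overlapped. Divided in the same way by the summed mt- TPM, 3.06% of all tested genes were lower and 8.05% higher in both N/D/S libraries. Adding the chromosome 1 copies left the counts at 6, 1 and 6, although those shares still depend on the division of reads within the mt-Co1 pair. The shares of 1 library sum to 100%, so these counts are not independent of each other, and no p-value was computed for them. The mt-Nd4l share was 2.71% and 1.85% in N/D and 1.31% and 0.911% in N/D/S. The mt-Co3 share moved the other way, from 24.9% and 19.0% in N/D to 30.2% and 28.5% in N/D/S.

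**Figure D5:**
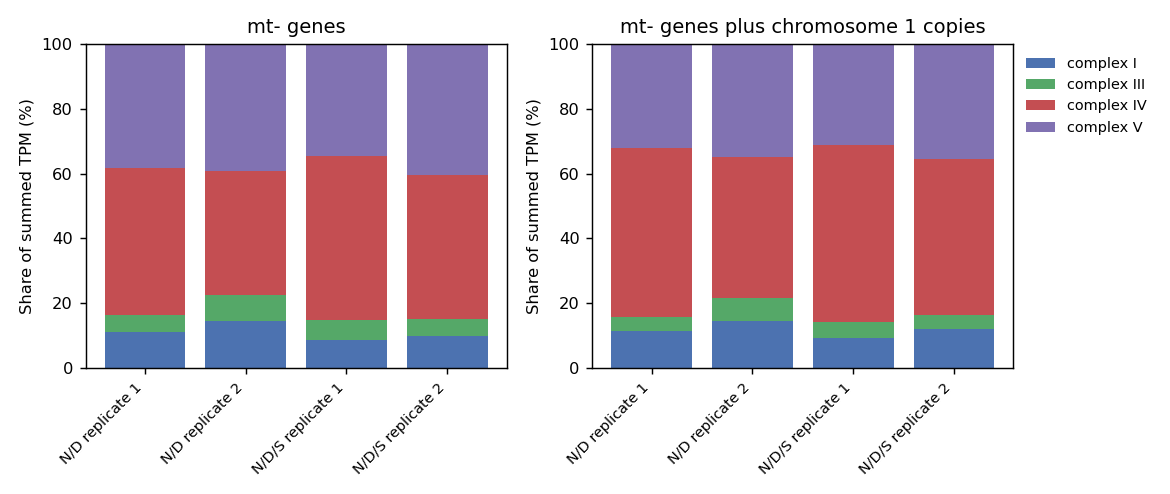
Stacked bars give the percentage of summed TPM held by complexes I, III, IV and V in each library, for the mt- genes alone (left) and with their chromosome 1 copies added (right). Complex I is at 11.2% and 14.6% in N/D against 8.70% and 9.94% in N/D/S on the left, and the lines overlap on the right.

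Replicate 1 was compared with replicate 2 because same-numbered files list the same symbols, though the labels do not say what a number stands for. Mitochondrial mRNAs were higher in replicate 2 in both lines. The 13 genes summed to 23277 TPM in N/D replicate 1 and 40578 TPM in N/D replicate 2, and to 26950 and 44902 TPM in N/D/S. These sums were 2.35%, 4.10%, 2.72% and 4.54% of the library totals. Replicate 2 was 1.74 times replicate 1 in N/D and 1.67 times in N/D/S, and the exact two-sided permutation test gave p = 0.333, the smallest possible. Between the lines the exact permutation test gave p = 0.667. The 6 genes without a chromosome 1 copy, whose reads are least shared, behaved alike with 6951 and 12848 TPM in N/D and 7299 and 12740 TPM in N/D/S.

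By gene, replicate 1 was below replicate 2 in 13 of 13 mt- genes in N/D and in 12 of 13 in N/D/S, where mt-Co1 was the exception. In 9 of 13 genes both replicate 2 libraries lay above both replicate 1 libraries, against 14.7% of all tested genes. The 4 others were mt-Co1, mt-Co3, mt-Nd4l and mt-Nd5. The differences for replicate 1 minus 2 ranged from −1.83 for mt-Nd3 (SE 0.80, limma unadjusted p = 0.068, adjusted p = 0.976) to −0.12 for mt-Co1. Their median was −0.87, beside −0.25 over all tested genes, and was −0.74 with N/D replicate 1 left out, where all tested genes were at 0.39. Again 0 of 13 mt- genes passed, and 0 of 13 had an unadjusted p under 0.05 in limma. Over all genes 0 passed (0.0%), with 260 at an unadjusted p under 0.05. Calls from fits that leave out 1 library are not given, as they leave a single library under 1 replicate number.

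Scaled to the summed mt- TPM, the median of the 13 was −0.11 and 6 of the genes changed sign. This scaling removes by construction what the 13 have in common. The background was less even within the lines. The median over all tested genes for replicate 1 minus 2 was −1.19 in N/D and 0.69 in N/D/S, whereas the median of the mt- genes was −0.96 in N/D and −0.71 in N/D/S. In N/D the mt- genes thus lay near all genes, and in N/D/S they lay on the other side of 0 from them.

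Markers of pluripotent cells and of glia also differed by replicate number, although the cells had been sorted for tdTomato, a gate meant to keep labelled neurons. All 4 of 4 pluripotent cell markers were higher in both replicate 2 libraries, against the 14.7% of all tested genes given above. Nanog, Zfp42 and Pou5f1 reached 1 TPM only in replicate 2 and so passed the filter through it, which partly fixed this count. Summed levels of the 4 were 0.247 and 184 TPM in N/D and 3.50 and 291 TPM in N/D/S. Most of this was Dppa5a, at 0 and 164 TPM in N/D and 3.03 and 266 TPM in N/D/S, while Pou5f1, which defines the pluripotent state, was at 0 and 7.55 TPM in N/D and 0.088 and 19.5 TPM in N/D/S. Astrocyte and oligodendrocyte markers summed to 0 and 181 TPM in N/D and 17.3 and 70.4 TPM in N/D/S, and all 5 of the 6 that were tested were higher in both replicate 2 libraries. Aldh1l1, Gfap and Olig1 among them reached 1 TPM only in replicate 2, so the filter partly fixed this count too. Neuron markers summed to less in replicate 2 of each line, with 3972 and 2757 TPM in N/D and 4475 and 3172 TPM in N/D/S, and 2 of 5 were lower in both replicate 2 libraries, against 14.8% of all tested genes. Mesenchyme and endothelium markers summed to 38.8 and 27.2 TPM in N/D and 7.50 and 25.0 TPM in N/D/S, and 2 of the 3 tested (the collagens Col1a1 and Col3a1) were higher in both replicate 2 libraries. Of these, Col1a1 reached 1 TPM only in replicate 2 and so passed the filter through it. The third tested, the endothelial gene Pecam1, made up nearly all of the sum in N/D replicate 1, at 38.8 and 2.41 TPM in N/D and 5.11 and 8.06 TPM in N/D/S. No marker passed limma's adjusted test, and the part of these markers in the replicate difference of the mt- genes was not tested.

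Remaining marker lists were mixed. Neural progenitor markers summed to 387 and 1163 TPM in N/D and 476 and 687 TPM in N/D/S, but 1 of 6 was higher and 1 lower in both replicate 2 libraries. The higher was Fabp7, a fatty acid binding protein of radial glia, at 134 and 906 TPM in N/D and 179 and 506 TPM in N/D/S, and the lower was Vim, an intermediate filament gene. GABAergic forebrain neuron markers summed to 519 and 908 TPM in N/D and 1073 and 405 TPM in N/D/S. Genes of stress and dissociation summed to 250 and 338 TPM in N/D and 380 and 176 TPM in N/D/S, and 2 of 7 (Hspa1a and Atf3) were higher and 0 lower in both replicate 2 libraries. Between the lines no marker passed limma's adjusted test, and 1 had an unadjusted p under 0.05. It was the progenitor gene Hes5, a Notch target, at 0 and 22.6 TPM in N/D and 61.8 and 69.2 TPM in N/D/S (limma adjusted p = 1.0).

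Nuclear genes that act with the mitochondrial genome did not pass either, with 0 called in every list and either comparison by limma. Among 19 tested genes of mitochondrial DNA replication and transcription the median was 0.39 for N/D/S minus N/D, beside 0.26 over all genes, and 7 of the 19 were listed at 0 in N/D replicate 1. Of its highest members, Ssbp1, which coats single-stranded mitochondrial DNA, measured 61.5 and 131.6 TPM in N/D and 73.3 and 67.8 TPM in N/D/S. Mterf3, a regulator of mitochondrial transcription, measured 5.52 and 56.9 TPM in N/D and 65.6 and 33.2 TPM in N/D/S, and Mterf4, which acts in mitochondrial ribosome assembly, lay between 24.5 and 45.6 TPM. In the 21 genes of mitochondrial RNA processing and stability the median was 0.10. Slirp, which with Lrpprc stabilises mitochondrial mRNAs, measured 506 and 417 TPM in N/D and 301 and 275 TPM in N/D/S. It was lower in both N/D/S libraries, with a difference of −0.67 (SE 0.96, limma adjusted p = 1.0). Hsd17b10, a subunit of the mitochondrial RNase P, lay between 83.3 and 166.5 TPM and Rexo2, an oligoribonuclease, between 49.4 and 103.4 TPM.

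Summed nuclear subunits did not order the libraries as the mitochondrial subunits did. The 36 nuclear complex I genes summed to 23817 and 18079 TPM in N/D and 15006 and 24856 TPM in N/D/S, so replicate 2 was lower in N/D and higher in N/D/S. The median difference between the lines was −0.05 for these 36, −0.15 for the 4 genes of complex II, −0.18 for 9 of complex III, −0.36 for 10 of complex IV and −0.11 for 15 of complex V. All 5 lay below the median of 0.26 over all tested genes, but those of complexes I, II and V lay above the −0.15 of genes that reached 1 TPM in all 4 libraries. For nuclear complex I the median was −0.52 in replicate 1 and 0.40 in replicate 2, where all genes were at 1.14 and −0.62. Ndufc1, an accessory subunit and the highest of the complex I list, measured 1837 and 1163 TPM in N/D and 911 and 1563 TPM in N/D/S. Cox8a, an accessory subunit of complex IV, measured 2705 and 1150 TPM in N/D and 1122 and 1696 TPM in N/D/S.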

How the data were processed

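Polyadenylated RNA of 4 libraries, 2 per line, was sequenced as paired ends on an Illumina NovaSeq. The authors quantified transcripts with kallisto 0.44.0 and tested with sleuth, and deposited TPM per gene symbol, 1 table per library. The submitters' notes name GRCm38, and the index release is not given in the sources used here. Depth is unknown from TPM, so no counting intervals were computed. Each file also holds 26 rows with symbols turned into dates. No column was left unused (0). Of 34968 symbols shared by the 4 tables, the 12975 that reached 1 TPM in 2 or more libraries were compared on log2(TPM + 1), a scale that understates changes of low genes, with limma 3.58.1 (R 4.3.3) and Benjamini-Hochberg adjustment at 0.05, once by line and once by replicate number, without other covariates. The script was tested on simulated data, with recovery required only at a spread set for the simulation and not at that of these libraries.

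Single values were compared by exact two-sided permutation. Libraries were grouped by their titles. Same-numbered libraries did not deviate together (r = 0.02 over 12975 genes, which are not independent replicates), so the numbers were not taken to pair them. Copies, 31-mers and sequences came from the GENCODE M21 transcripts (GRCm38), which may differ from the authors' index, using Python 3.11.15.

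Named were every member, listed genes within 50 kb of Gm10925, and from each gene list up to the 3 highest in mean TPM. The members and lists were chosen with earlier results of these data known. Pseudocounts, filters, scalings, a variance trend, a replicate block and leaving out each library were tried as alternatives. Pooling mt- genes with their copies and scaling to the summed mt- TPM were chosen after seeing the data.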

Additional observations from a re-analysis of the deposited data

Results flagged for a closer look

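mt-Co1 was the single mt- gene whose replicate numbers differed in opposite directions in the lines. Replicate 1 minus 2 was −0.32 in N/D and 0.082 in N/D/S on the log2(TPM + 1) scale, and the difference between these was not tested.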

How the results depend on the processing

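Across 508 alternative values of 39 results, 31 changed sign and are given below, 7 moved, and 470 kept their call or stayed within the spread between replicates. Among these, the median line difference of the mt- genes took either sign. Filters, the variance trend and the block cannot change an mt- difference, and a natural log setting repeated the fit with a pseudocount of 0.5. The 470 thus include values fixed in advance. No mt- gene (0 of 13) passed under any alternative that kept all 4 libraries. Among these, the lowest adjusted p of an mt- gene between replicate numbers was 0.177 (limma, variance trend). Fits without 1 library leave a group of 1, so their calls are not given. Leaving out N/D replicate 2 or N/D/S replicate 1 makes N/D replicate 1, with the fewest symbols above 0, the lone library of its group. The variance trend called 6 and 21 of all genes between lines and between replicate numbers. No filter called 0 and 3, and the other alternatives on all 4 libraries 0. The lowest unadjusted p of an mt- gene was 0.0218 between lines (no filter) and 0.000424 between replicate numbers (variance trend). Leaving out 1 library in turn, with the lone library assumed to vary like the rest, gave a median line difference of the mt- genes from −0.74 (without N/D replicate 1) to 0.39 (without N/D replicate 2), a Gm10925 difference from 2.37 to 3.46, and a median replicate difference from −1.04 to −0.71. By gene, the line difference changed sign within −0.45 to 0.67 for mt-Atp6, −0.28 to 0.60 for mt-Atp8, −0.51 to 0.33 for mt-Co2, −0.74 to 0.67 for mt-Cytb, −0.75 to 0.86 for mt-Nd1, −1.07 to 0.27 for mt-Nd2, −0.68 to 1.55 for mt-Nd3 and −1.41 to 0.0011 for mt-Nd4, and the replicate difference within −0.44 to 0.21 for mt-Co1 and −0.67 to 0.21 for mt-Nd4l. Upper quartile scaling turned the line difference of mt-Atp6 (−0.10), mt-Atp8 (−0.053) and mt-Nd1 (−0.16) and moved the mt- median to −0.25, with that of all genes at 0.14. Scaling to the summed mt- TPM turned the same 3 (−0.069, −0.019 and −0.13), and for replicate 1 minus 2 gave 0.092 for mt-Atp8, 0.65 for mt-Co1, 0.051 for mt-Co2, 0.24 for mt-Co3, 0.54 for mt-Nd4l and 0.32 for mt-Nd5, with a median of −0.11 and all genes at 0.32. Summed with mt-Atp6, the Gm10925 difference was 0.25. Per 100 TPM of mt-Atp6 rather than of all mt- genes, Gm10925 stood at 1.64, 1.63, 14.9 and 8.94. With at least 1 TPM required in every library the all-gene medians were −0.15 between lines and 0.21 between replicate numbers, against 0.26 and −0.25, so the background and not the mt- values turned. Line and replicate number are balanced here, so a replicate block cannot change the differences. The median stayed at −0.04 and Gm10925 at 2.92, and 0 mt- genes were called. Depth is unknown, and with 2 libraries per line an exact test of 1 value cannot go below p = 0.333.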
